A study of Mus musculus with 11 samples.

Results

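Cholesterol synthesis was examined through 7 genes in mice with obesity-related alcohol-induced acute pancreatitis (OA-AP). They are 6 enzymes (Hmgcs1, Idi1, Fdps, Fdft1, Sqle and Cyp51) and Insig1, a sterol sensor of the endoplasmic reticulum. Their rows were taken by gene name from the count tables of the pancreas, which lists 54532 genes, and of epididymal adipose tissue, which lists 46078. RNA sequencing counts were analysed for 2 control and 3 OA-AP pancreas libraries and for 3 control and 3 OA-AP adipose libraries.

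All mice were male, wild type and of the C57BL/6 strain on the labels (C57BL/6J in the study's methods), with an age of 16 weeks on the labels. OA-AP mice had eaten a high-fat diet (60 kcal% fat) for 12 weeks and then received 2 intraperitoneal injections of ethanol at 2 g/kg, 1 h apart. Control mice were lean, ate chow (10 kcal% fat) for the same time and received saline. Tissue was collected 12 h after the first injection. Diet, ethanol and pancreatitis therefore differed together between the groups, and their parts in any difference cannot be told apart.

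Cells make cholesterol from acetyl-CoA through mevalonate and squalene. The enzymes of this chain are known targets of the transcription factor SREBP-2 (gene Srebf2), which the escort protein SCAP carries from the endoplasmic reticulum to the Golgi when membrane sterol is low. INSIG-1 and INSIG-2 hold SCAP back when sterol is plentiful, and Insig1 is itself an SREBP target. In textbook accounts the liver makes much of the body's cholesterol, whereas adipocytes store a large pool of free cholesterol.

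Promoter sequence was searched for elements known from sterol-regulated genes. RefSeq promoter entries on GRCm38.p6, each from 250 bases before to 50 bases after a start site, were matched for 4 of the 7 genes (Hmgcs1, Idi1, Cyp51 and Insig1). The 250 bases upstream were searched on both strands for the sterol regulatory element TCACNCCAC, the CCAAT box bound by NF-Y, the Sp1 box GGGCGG and the E-box CACGTG. The stretches from 150 to 51 bases upstream of the start are shown for 3 genes described in full below, with matched letters in capitals.
Hmgcs1, chr13:119690201-119690300, plus strand: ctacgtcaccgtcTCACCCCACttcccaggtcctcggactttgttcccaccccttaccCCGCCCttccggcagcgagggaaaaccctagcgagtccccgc
Cyp51, chr5:4104748-4104847, minus strand: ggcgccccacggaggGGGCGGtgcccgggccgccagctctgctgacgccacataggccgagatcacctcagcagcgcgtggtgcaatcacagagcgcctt
Insig1, chr5:28071262-28071361, plus strand: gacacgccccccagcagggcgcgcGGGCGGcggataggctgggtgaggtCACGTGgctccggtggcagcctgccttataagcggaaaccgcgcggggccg

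The sterol regulatory element was matched in Hmgcs1, from 137 to 129 bases upstream, and in no other of the 4 promoters. It was matched in 1.05% of 32851 RefSeq promoters and in 0 of 14 other synthesis enzymes with promoter entries. Only this 9-letter form was searched, so a promoter without a match may still hold a divergent sterol regulatory element. The CCAAT box was present in 4 of 4, against 33.8% of all promoters, and the Sp1 box in 4 of 4, against 32.7%. Of 14 other synthesis enzymes with promoter entries 12 had the CCAAT box and most had the Sp1 box. Neither box is therefore particular to these 4 genes. Insig1 also held the E-box, which 6.02% of all promoters hold. No match overlaps another one. A match of letters is a description of sequence and not a measured binding site.

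The genes lie on 5 chromosomes (GRCm38, authors' table). Hmgcs1 (ENSMUSG00000093930) spans chr13:119690379-119708260 and Idi1 (ENSMUSG00000058258) chr13:8885501-8892451, both on the plus strand. Insig1 (ENSMUSG00000045294, plus strand) spans chr5:28071363-28078662, and Cyp51 (ENSMUSG00000001467, minus strand) spans chr5:4081145-4104746. Sqle (ENSMUSG00000022351) spans chr15:59315077-59331192 on the plus strand. Fdft1 (ENSMUSG00000021273) spans chr14:63145150-63179578 and Fdps (ENSMUSG00000059743) chr3:89093588-89101959, both on the minus strand. For the 5 genes checked (Hmgcs1, Idi1, Fdps, Fdft1 and Cyp51) the deposited length equals the exonic bases in GENCODE M21, untranslated regions included.

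Total counts ranged from 14188832 to 17238919 in the pancreas and from 20825177 to 27928097 in adipose tissue. Levels of cell type markers differed between libraries. The summed level of 8 acinar markers was 574800 and 675900 CPM (counts relative to the TMM-scaled library total) in control pancreas and 262400 to 340200 CPM in OA-AP pancreas. It was 5243 CPM in adipose control 2 against 7.66 to 16.7 CPM in the other adipose libraries. Of the 8, 6 were called lower in OA-AP pancreas. Neutrophil markers (5 genes) were higher in OA-AP adipose tissue (165 to 186 CPM against 5.65 to 12.0) and reached 90.01 CPM in OA-AP pancreas 3 against 1.03 to 12.3 CPM in the other 4 pancreas libraries. The adipocyte sum (6 genes) was 25800 to 29510 CPM in every adipose library and at most 70.4 CPM in the pancreas. Fibroblast markers (4 genes) summed to 1879 to 2333 CPM in control and 1002 to 1325 CPM in OA-AP adipose tissue. Lymphocyte markers (4 genes) summed to 6.42 to 26.2 CPM in control adipose tissue, highest in control 2, and to 1.97 to 2.68 CPM in OA-AP, and 4 of 4 were called lower there. The part of these shifts in the results below was not tested. Values without adipose control 2 or OA-AP pancreas 3 are given for most of the 7 genes and for other genes whose call they changed.

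Levels compared between genes per length differed widely (RPKM, the CPM divided by the kilobases of exon). In control pancreas Insig1 stood highest (18.3 ± 0.986 RPKM, SD, n = 2), above Fdft1 (4.84 ± 0.466), Hmgcs1 (1.39 ± 0.361), Sqle (1.06 ± 0.254), Cyp51 (0.722 ± 0.0322), Idi1 (0.246 ± 0.175) and Fdps (0.129 ± 0.0483). The neighbours Hmgcs1 and Sqle overlapped between libraries, and so did Idi1 and Fdps. In control adipose tissue Hmgcs1 stood highest (39.3 ± 5.39 RPKM, n = 3), followed by Insig1 (24.9 ± 7.08), Fdft1 (17.1 ± 3.48), Cyp51 (6.27 ± 1.03), Idi1 (2.74 ± 0.217), Sqle (1.78 ± 0.241) and Fdps (0.170 ± 0.0145). Insig1 and Fdft1 overlapped there, and the other neighbours did not. The low Fdps level is uncertain in both tissues, since 6 other gene entries match it at 90% identity or more and can share its reads. Of these 2 held 61 pancreas counts in all against 28 for Fdps. Gm43738 among them is no separate copy but overlaps Fdps on the same strand, over 1124 of its 4208 exonic bases.

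**Figure D1:**
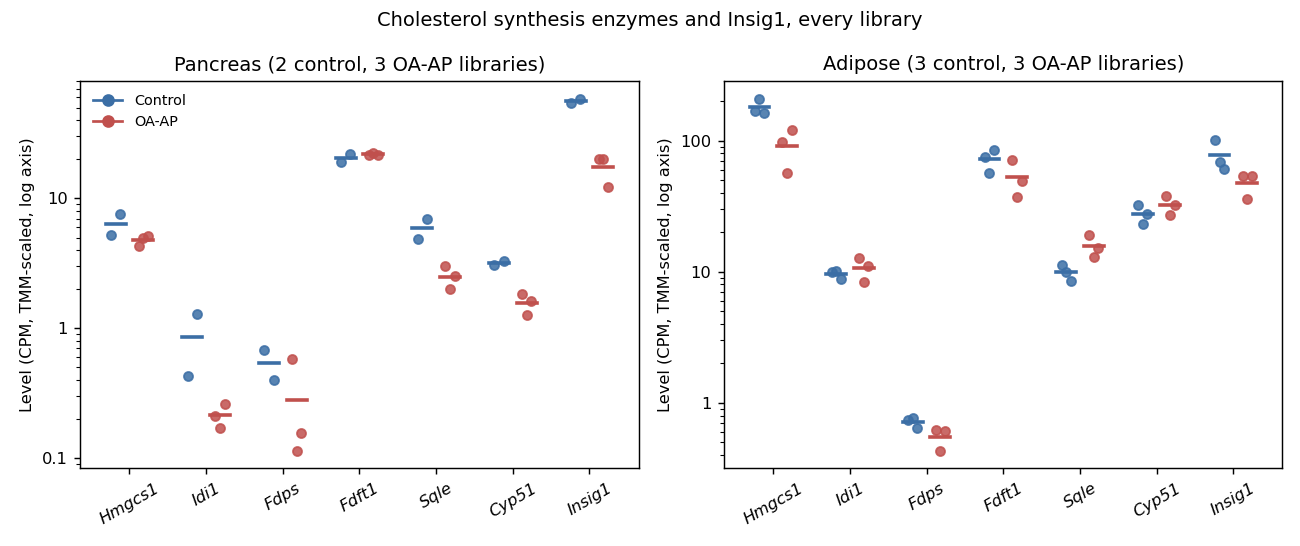
Level of each gene in every library (points, CPM on a log axis) with group means (bars), for control (blue) and OA-AP (red) in the pancreas (left) and adipose tissue (right). In the pancreas the OA-AP points of Sqle, Cyp51 and Insig1 lie below both controls, and in adipose tissue Hmgcs1 lies lower and Sqle higher without overlap.

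In the pancreas 3 of the 5 genes that could be tested fell in OA-AP and 0 rose, with 0 rising also at an unadjusted p under 0.05 and by DESeq2. DESeq2 called 2 of the 3 lower, with an adjusted p of 0.0552 for Cyp51. Insig1 fell 3.24-fold, Sqle 2.34-fold and Cyp51 2.02-fold. Of all 12884 genes tested 29.8% were called, 16.2% higher and 13.5% lower (edgeR quasi-likelihood test). A call needed a Benjamini-Hochberg adjusted p under 0.05 together with a change of 1.5-fold or more. The 5 genes had a median log2 fold change of -1.01 against 0.039 over all genes tested. In whole tissue, fewer cells of a type and less RNA per cell cannot be told apart.

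Insig1, the sterol sensor, had 54.3 and 58.6 CPM in the control pancreas libraries and 19.95, 20.08 and 12.34 CPM in the OA-AP libraries. Both controls stood above every OA-AP library, and OA-AP library 3 was lowest. The log2 fold change was -1.69 ± 0.21 (SE, adjusted p = 0.00111). Without OA-AP library 3, which held the most neutrophil transcripts, it was -1.54 (adjusted p = 1.36e-07). Insig1 was called lower in 12 of 12 alternative analyses.

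Sqle encodes squalene epoxidase, a rate-limiting step after squalene. It had 4.89 and 6.88 CPM in control pancreas and 2.99, 2.00 and 2.51 CPM in OA-AP pancreas, from 35 to 69 counts a library. The groups did not overlap, and the log2 fold change was -1.23 ± 0.29 (adjusted p = 0.0153). Leaving out control 1 (adjusted p = 0.0505) or control 2 (adjusted p = 0.156), which leaves a single control assumed to vary like the OA-AP libraries, ended the call. Without OA-AP library 3 the value was -1.27 (adjusted p = 0.00313).

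Cyp51, the lanosterol demethylase, had 3.09 and 3.29 CPM in control pancreas and 1.84, 1.26 and 1.62 CPM in OA-AP pancreas. The groups did not overlap here either, on 22 to 36 counts a library. The log2 fold change of -1.01 ± 0.33 was just past the threshold (adjusted p = 0.048), and 4 of 12 alternatives kept the call. It was lost without either control or without OA-AP library 1 or 2. One that kept it left out OA-AP library 3 (-1.08, adjusted p = 0.0253). Cyp51 shares 166 exonic bases with Akap9 on the opposite strand, and without strand their reads cannot be told apart.

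Hmgcs1 and Fdft1 did not pass the test in the pancreas. Hmgcs1, the cytosolic HMG-CoA synthase, had 5.23 and 7.58 CPM in controls and 4.31, 4.92 and 5.13 CPM in OA-AP (log2 fold change -0.42 ± 0.24, adjusted p = 0.219). All of its OA-AP values lay below both controls, as those of 4 of the 5 genes did, against 29.4% of all genes tested, and none lay above without overlap, against 32.9%. Fdft1, squalene synthase, had 19.1 and 21.8 CPM in controls and 21.5 to 22.4 CPM in OA-AP (0.10 ± 0.14, adjusted p = 0.617). It shares 774 exonic bases with the abundant Ctsb on the opposite strand, so part of its count is uncertain.

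Idi1 and Fdps were too low for a test in the pancreas. Idi1, isopentenyl-diphosphate isomerase, had 5 and 13 counts in controls and 4, 3 and 5 counts in OA-AP libraries. A pseudogene identical to Idi1 over 684 bases held 13 pancreas counts in all against 30 for Idi1, so part of its count is uncertain. Fdps, farnesyl diphosphate synthase, had 8 and 4 counts against 11, 2 and 3. The Idi1 values did not overlap as CPM and the Fdps values did, and a change in either could not be judged at this depth.

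Scaling bears on these pancreas values. The 10 most abundant genes took 56.6% and 58.2% of control counts and 43.5% to 47.7% of OA-AP counts. When libraries were scaled by their totals alone, not by trimmed mean (TMM) factors, the median over all genes tested moved to 0.75 on the log2 scale, and 5843 genes were called higher and 506 lower against 2090 and 1744. Insig1 was still called lower under that scaling (-0.96, adjusted p = 0.0109). Sqle (-0.50) and Cyp51 (-0.30) kept their sign without passing, Hmgcs1 turned to 0.30, and Fdft1 was called higher (0.81, adjusted p = 0.00288).

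In adipose tissue all 7 genes could be tested, and 1 fell and 1 rose. Hmgcs1, near the entry to the pathway, fell 1.98-fold. Sqle, further along it, rose 1.60-fold. Over all 15839 genes tested, 25.1% were called, 12.1% higher and 13% lower. The 7 genes had a median log2 fold change of -0.37 against -0.015 over all genes tested.

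Hmgcs1 had 169, 209 and 163 CPM in the adipose controls and 97.5, 56.2 and 119 CPM in the OA-AP libraries. Every OA-AP library stood below every control, and control 2, which carried the acinar transcripts, was the highest. The log2 fold change was -0.99 ± 0.27 (adjusted p = 0.0278), and without control 2 it was -0.87 (adjusted p = 0.0713). The call was also lost without control 1 (0.0598), control 3 (0.0588) or OA-AP library 1 (adjusted p = 0.0537).

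Sqle had 11.2, 9.87 and 8.54 CPM in adipose controls and 19.2, 12.98 and 15.3 CPM in OA-AP. The groups did not overlap, and the direction was opposite to that in the pancreas. The log2 fold change was 0.68 ± 0.18 (adjusted p = 0.0228). Without control 2 it was 0.68 with an adjusted p of 0.0559, and the call was also lost without control 3 (0.0733), OA-AP library 1 (0.0572) or OA-AP library 3 (0.0566).

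Insig1 had 102, 69.0 and 60.3 CPM in adipose controls and 53.7, 36.1 and 53.8 CPM in OA-AP. The groups did not overlap, but the log2 fold change of -0.69 ± 0.24 missed the threshold (adjusted p = 0.0604). It was called with DESeq2 (adjusted p = 0.0194) and with library totals alone (adjusted p = 0.027), and stood at -0.75 (adjusted p = 0.0809) without control 2. Without control 1, which had the highest level, the value was -0.42 (adjusted p = 0.144). Groups without overlap were seen for 3 of the 7 genes on the lower side (Hmgcs1, Fdps and Insig1), against 26% of all genes, and for Sqle on the higher side, against 26.4%.

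The other 4 genes did not pass in adipose tissue. Idi1 (8.75 to 10.2 CPM in controls and 8.32 to 12.8 in OA-AP) had a log2 fold change of 0.16 ± 0.18 and Cyp51 (23.3 to 32.3 and 27.0 to 37.6 CPM) one of 0.22 ± 0.16. Fdft1 (56.4 to 85.4 and 37.1 to 71.0 CPM) had -0.47 ± 0.26 and Fdps (18 to 20 and 9 to 12 counts) -0.37 ± 0.28. Their adjusted p ran from 0.191 for Fdft1 to 0.521 for Idi1. Values of Idi1, Cyp51 and Fdft1 overlapped between the groups.

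The summed level of the 7 genes was 87.7 and 99.9 CPM in control pancreas and 51.4, 50.97 and 43.6 CPM in OA-AP pancreas. In adipose tissue it was 401, 378 and 354 CPM in controls and 292, 178 and 281 CPM in OA-AP. The sum was lower in every OA-AP library of both tissues. Insig1 is the most abundant of the 7 in control pancreas and Hmgcs1 in control adipose tissue, so each sum follows mainly its leading gene.

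Whether the change differed between the tissues was tested directly, as the tissue by condition term over 17046 genes of all 11 libraries. It passed for 3 of the 7 genes (Sqle, Cyp51 and Idi1), against 21.3% of all genes tested, each time with the higher value in adipose tissue. Idi1, too low for a pancreas test, entered this fit only through its adipose counts, so its difference is uncertain. For Sqle the log2 fold change in adipose tissue exceeded that in the pancreas by 1.89 ± 0.33 (adjusted p = 0.00199), with 18 of 18 alternatives past the threshold. For Cyp51 the difference was 1.22 ± 0.30 (adjusted p = 0.0138, 16 of 18 alternatives). It was 0.37 (adjusted p = 0.371) with library totals alone and 1.19 (adjusted p = 0.0597) without pancreas control 2. Without adipose control 2 the differences were 1.85 for Sqle and 1.07 for Cyp51, both past the threshold (adjusted p = 0.00599 and 0.0319).

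For Idi1 the difference was 2.10 ± 0.58 (adjusted p = 0.0231) and rests on 3 to 13 pancreas counts. Without pancreas control 2, which had the 13 counts, it was 1.14 (adjusted p = 0.378), and 10 of 17 alternatives kept the call. It was also lost without adipose control 3, adipose OA-AP library 1 or 3, or pancreas OA-AP library 1 (adjusted p from 0.0502 to 0.0525). Insig1 (1.00 ± 0.35, adjusted p = 0.0663), Fdps (0.56 ± 0.82), Fdft1 (-0.58 ± 0.32) and Hmgcs1 (-0.59 ± 0.38) did not pass. The pancreas median shift under library totals carries into this term, whose median over all genes then moved from -0.055 to -0.88.

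**Figure D2:**
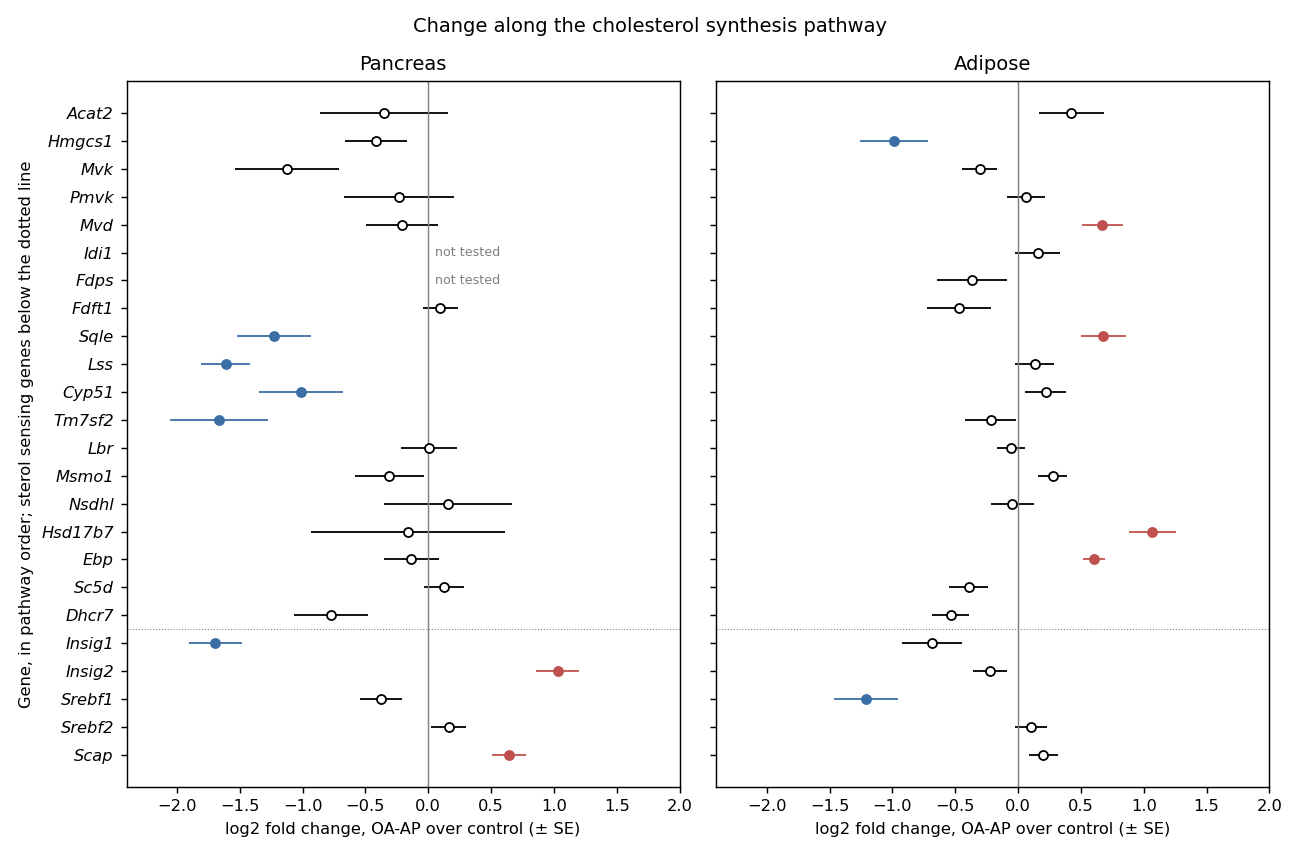
Log2 fold change (OA-AP over control, bars are SE) of cholesterol synthesis enzymes in pathway order and of INSIG, SREBP and SCAP genes below the dotted line, in the pancreas (left) and adipose tissue (right). Filled points passed the test, blue lower and red higher, and in the pancreas those from Sqle to Tm7sf2 lie together near -1.0 to -1.7.

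The other enzymes of the pathway, a list of 14 genes, had 13 that could be tested in each tissue (Idi2 was listed at 0 in every library). In the pancreas 2 fell, against 13.5% of all genes tested, and 0 rose (4 and 0 at an unadjusted p under 0.05 by edgeR, 2 and 0 by DESeq2), with a median log2 fold change of -0.23. Lss, lanosterol synthase, which acts between Sqle and Cyp51, had 10.2 and 11.6 CPM in controls and 3.41, 3.60 and 3.66 CPM in OA-AP (-1.61 ± 0.19, adjusted p = 0.00087). Tm7sf2, a sterol reductase acting after Cyp51, had 3.09 and 3.89 CPM against 1.52, 0.801 and 0.941 CPM (-1.67 ± 0.39, adjusted p = 0.0139). The Tm7sf2 call held in 9 of 12 alternatives and was lost without control 1 (adjusted p = 0.0651) or control 2 (adjusted p = 0.116). In GENCODE M21 Tm7sf2 also shares 532 exonic bases with Vps51 on the same strand, so part of its count is uncertain. Its deposited position differs from M21 and its deposited length is 5593 bases against 4403 exonic bases there. The overlap in the authors' annotation is therefore not known. The 4 genes Sqle, Lss, Cyp51 and Tm7sf2, which act one after another from squalene on, were all lower without overlap. So were Hmgcs1, Mvk, Msmo1, Ebp and Dhcr7 elsewhere in the pathway. Of the 13 other enzymes 6 were lower without overlap, against 29.4% of all genes tested, and 0 higher, against 32.9%. Lbr, which encodes a second sterol reductase of the Tm7sf2 step, stood at 0.0071 ± 0.22.

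The remaining 10 pancreas enzymes did not pass. The log2 fold changes were -0.35 for Acat2, -1.12 for Mvk (adjusted p = 0.0671), -0.23 for Pmvk and -0.21 for Mvd among the steps before squalene. Among the late steps they were -0.31 for Msmo1, 0.16 for Nsdhl, -0.16 for Hsd17b7, -0.13 for Ebp, 0.13 for Sc5d and -0.77 for Dhcr7 (adjusted p = 0.0777).

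In adipose tissue 3 of the 13 other enzymes rose, against 12.1% of all genes tested, and 0 were called lower (2 lower at an unadjusted p under 0.05 by edgeR, 0 by DESeq2), with a median of 0.063. Hsd17b7, a ketosteroid reductase that removes the methyl groups of lanosterol together with Msmo1 and Nsdhl, had 8.27, 8.77 and 8.31 CPM in controls and 18.1, 13.2 and 21.8 CPM in OA-AP (1.07 ± 0.19, adjusted p = 0.00528). Ebp, a sterol isomerase, had 36.7, 38.9 and 37.3 CPM against 61.6, 56.1 and 54.0 CPM (0.60 ± 0.085, adjusted p = 0.00251). Mvd, mevalonate diphosphate decarboxylase, had 6.27, 4.87 and 5.04 CPM against 9.12, 7.84 and 8.84 CPM (0.67 ± 0.16, adjusted p = 0.0167). All 3 sets of OA-AP values lay above all controls. Such separation upward was seen for 3 of the 13 enzymes, against 26.4% of all genes tested, and downward for 2, against 26%. The Mvd call was lost without control 2 (0.61, adjusted p = 0.052), control 3 (adjusted p = 0.06) or OA-AP library 3 (adjusted p = 0.0552), and Ebp fell under the fold threshold without OA-AP library 1. Dhcr7, the last step of one branch, had an adjusted p of 0.0276 but a fold change of 1.45, under the threshold, in the lower direction (-0.54 ± 0.15).

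The other 9 adipose enzymes ran from -0.39 (Sc5d) to 0.42 (Acat2) on the log2 scale. Mvk stood at -0.31, Tm7sf2 at -0.22, Lbr at -0.056, Nsdhl at -0.045, Pmvk at 0.063, Lss at 0.13 and Msmo1 at 0.27. Lss, which fell in the pancreas, had 25.1, 17.2 and 18.8 CPM in adipose controls and 23.7, 21.5 and 21.6 CPM in OA-AP, so its groups overlapped. The tissue by condition term passed for Lss (1.73 ± 0.24, adjusted p = 0.000503), Tm7sf2 (1.44 ± 0.42, adjusted p = 0.0305) and Ebp (0.73 ± 0.17, adjusted p = 0.00924). It held in 18 of 18 alternatives for Lss, 16 of 18 for Ebp and 9 of 18 for Tm7sf2, for which it was 1.26 (adjusted p = 0.0749) without adipose control 2 and was also lost without any 1 of 6 other libraries.

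**Figure D3:**
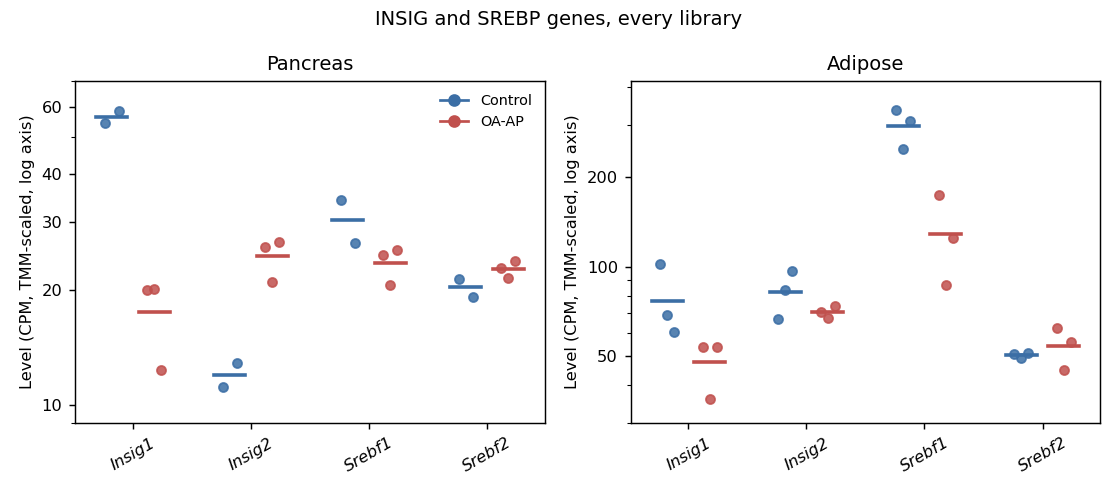
Level of the INSIG and SREBP genes in every library (points, CPM on a log axis) with group means (bars), for control (blue) and OA-AP (red). In the pancreas Insig1 lies lower and Insig2 higher in OA-AP without overlap, and in adipose tissue Srebf1 lies lower.

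Of 16 other genes for sterol sensing and SREBP processing 5 rose in the pancreas, against 16.2% of all genes tested, and 0 fell (1 lower at an unadjusted p under 0.05 by edgeR, 0 by DESeq2). Insig2, the other INSIG gene, had 11.2 and 12.9 CPM in control pancreas and 25.8, 20.995 and 26.6 CPM in OA-AP. It rose where Insig1 fell, without overlap in either gene (1.03 ± 0.17, adjusted p = 0.00313). Scap (0.64 ± 0.13, adjusted p = 0.00854), the ubiquitin ligase gene Rnf139 (0.98 ± 0.19, adjusted p = 0.00608) and the NF-Y subunit gene Nfya (0.97 ± 0.21, adjusted p = 0.0107) rose too. Without OA-AP library 3 Scap stood at 0.58, under the fold threshold, and without either control the calls of Scap and Nfya were lost. The Rnf139 call was lost without control 2 (adjusted p = 0.07). Sp1 (0.72 ± 0.17, adjusted p = 0.0144) was the fifth and is named because it completes the count. Srebf2 (0.16 ± 0.14) and Srebf1 (-0.37 ± 0.17, adjusted p = 0.12) did not pass.

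In adipose tissue 1 of the 16 rose, against 12.1% of all genes, and 1 fell, against 13%. Srebf1, the SREBP gene linked mainly to fatty acid synthesis, had 336, 248 and 308 CPM in controls and 174, 86.7 and 125 CPM in OA-AP (-1.21 ± 0.25, adjusted p = 0.0112). Ube2g2, a ubiquitin-conjugating enzyme of sterol-driven degradation, rose (0.90 ± 0.14, adjusted p = 0.00366). Insig2 (-0.22 ± 0.14, adjusted p = 0.238) and Srebf2 (0.10 ± 0.12, adjusted p = 0.552) did not pass, and the Insig2 groups overlapped. For Insig2 the tissues differed by -1.27 ± 0.22 (adjusted p = 0.00214).

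Of 8 genes for fatty acid synthesis, which SREBP-1c also drives, 3 were called in the pancreas and 2 in adipose tissue, against 29.8% and 25.1% of all genes tested. In the pancreas 1 rose (Fasn, fatty acid synthase, 1.03 ± 0.14, adjusted p = 0.00129) and 2 fell (the desaturases Fads1, -2.27 ± 0.26, adjusted p = 0.000885, and Fads2, -2.25 ± 0.37, adjusted p = 0.00366). Without control 2 the adjusted p of Fads2 was 0.053. In adipose tissue Fasn fell (-1.999 ± 0.63, adjusted p = 0.0468) and Scd1, stearoyl-CoA desaturase, rose (0.65 ± 0.21, adjusted p = 0.0476). The Fasn decrease had one adipose control, library 1, with 106059 counts against 16983 and 38817 in the other controls. Without that library the Fasn value was -1.03 (adjusted p = 0.101), and the call was also lost without control 3 or any 1 of the OA-AP libraries. The Scd1 call was lost without any 1 of the controls or OA-AP library 3, with 0.74 (adjusted p = 0.0678) without control 2.

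Of 15 genes for uptake, transport and esterification, 4 rose and 2 fell in the pancreas and 5 rose and 2 fell in adipose tissue. Over all genes tested 16.2% rose and 13.5% fell in the pancreas, and 12.1% rose and 13% fell in adipose tissue. Soat2, an acyltransferase that makes cholesteryl ester, rose in both (3.13 ± 0.57, adjusted p = 0.00775, and 2.54 ± 0.41, adjusted p = 0.00412). Gramd1b, which carries cholesterol from the plasma membrane to the endoplasmic reticulum, rose in the pancreas (2.71 ± 0.19, adjusted p = 0.000102) and fell in adipose tissue (-1.61 ± 0.42, adjusted p = 0.025). The lysosomal cholesterol exporter Npc1 rose in the pancreas (1.67 ± 0.25, adjusted p = 0.00191). The 2 genes that fell there were Npc2 and Vldlr. Npc2 had 24.6 and 24.2 CPM in control pancreas and 15.7, 14.8 and 14.9 CPM in OA-AP pancreas. Vldlr had 31.6 and 31.7 CPM against 20.9, 17.4 and 15.3 CPM. Each call held in 9 of 12 alternatives. The HDL receptor gene Scarb1 rose in adipose tissue (1.11 ± 0.15, adjusted p = 0.00232).

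Of 10 genes for liver X receptor action and sterol export, 2 of 8 tested rose in the pancreas and 0 fell (1 lower at an unadjusted p under 0.05 by edgeR, 1 by DESeq2). In adipose tissue 4 of 10 rose and 1 fell. Over all genes tested 16.2% rose and 13.5% fell in the pancreas, and 12.1% rose and 13% fell in adipose tissue. Lpcat3, a phospholipid acyltransferase and liver X receptor target, rose in both tissues (0.97 ± 0.14, adjusted p = 0.00192 in the pancreas, and 1.19 ± 0.20, adjusted p = 0.00522 in adipose tissue). Ch25h, cholesterol 25-hydroxylase, rose in adipose tissue (2.69 ± 0.41, adjusted p = 0.00328), and so did the oxysterol hydroxylase Cyp7b1 (2.54 ± 0.22, adjusted p = 0.000537). The non-sterol branch leaves the pathway at farnesyl diphosphate. Of its 12 genes 0 passed in the pancreas by edgeR (2 at an unadjusted p under 0.05, 0 by DESeq2), against 29.8% of all genes tested. In adipose tissue 3 rose, against 12.1%, and 0 fell, against 13%. Of these 3 Rabggta stood at 0.56, under the fold threshold, without adipose control 2, and its call was also lost without control 3 or OA-AP library 1. Nus1, a subunit of the dolichol-making prenyltransferase, rose there from 81.6 to 243 CPM (1.57 ± 0.15, adjusted p = 0.000752).

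**Figure D4:**
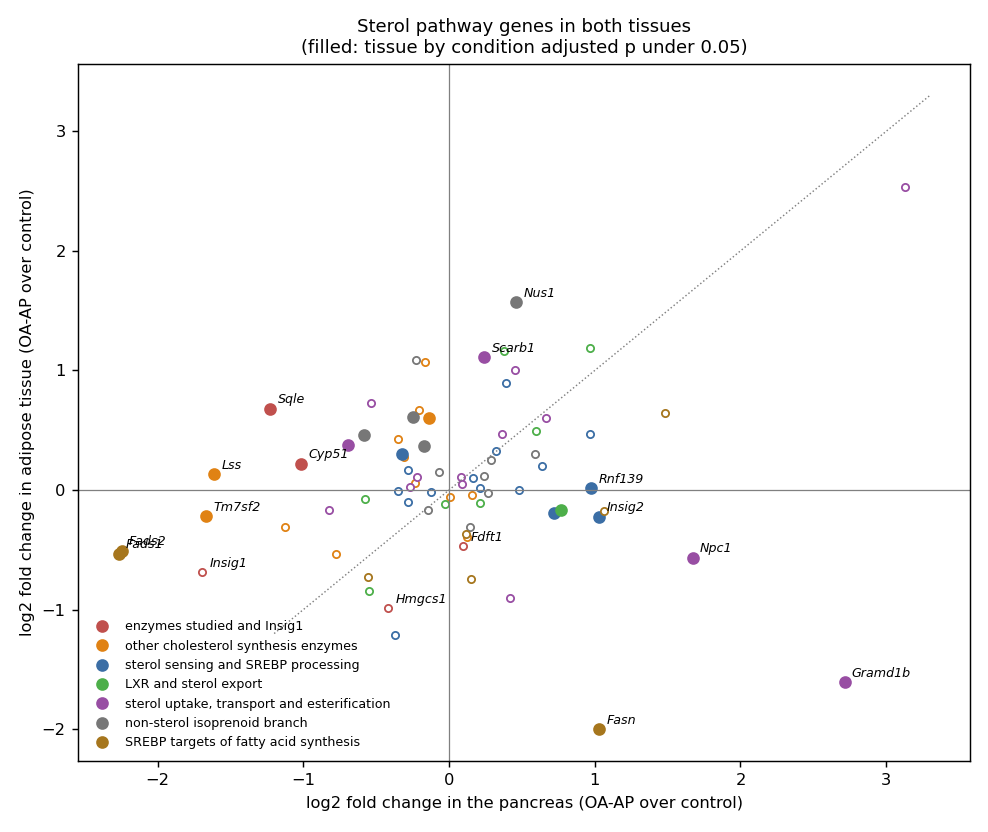
Log2 fold change (OA-AP over control) in the pancreas (x axis) and adipose tissue (y axis) for 77 genes tested in both, coloured by gene list, with equal change on the dotted line. Filled points differ between the tissues by the tissue by condition test, among them Sqle (-1.23 and 0.68) and Cyp51 (-1.01 and 0.22) on the upper left.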

How the data were processed

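RNA was isolated with Trizol and sequenced as paired 150-base reads, and the authors' library kit (NEBNext Ultra) does not mark strand. The authors trimmed reads with Trim Galore 0.6.6, checked them with fastp 0.20.1, mapped them with STAR to GRCm38 and counted them per gene with featureCounts 2.0.1, and deposited whole-number counts without normalization (one table per tissue, samples assigned by their labels). The annotation release and strand setting are not given in the sources used here. Labels do not state that libraries are separate animals, so p-values measure the spread between these samples. The lowest chi-square per degree of freedom between replicates was 7.56.

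Genes were filtered with filterByExpr, scaled with TMM factors (0.698 to 1.32 in the pancreas, 0.927 to 1.06 in adipose tissue) and tested per tissue with edgeR 4.0.16 (robust quasi-likelihood test, Benjamini-Hochberg, R 4.3.3). The tissue by condition term (adjusted p under 0.05) used all 11 libraries and treated pancreas and adipose libraries as independent. The labels do not state whether both tissues came from the same mice. Each SE was the absolute log2 fold change over the square root of its F value. CPM used TMM-scaled library sizes, and RPKM also the deposited exonic length. Scripts were tested on simulated data. Alternatives were DESeq2 1.42.0 and its size factors, library totals, TMM without acinar and abundant genes (over 1% of counts), other low-count filters and fold thresholds, each library left out, and replicate blocks. The genes examined and the lists were chosen with earlier results of these data known. Named were the 7 genes, the other enzymes and up to 4 genes of each other list per tissue with the smallest p. Some genes of the pathway are not reported here. Overlaps of exons and near-identical transcripts (at least 90% identity over 150 bases) were computed with GENCODE M21. Same-numbered control and OA-AP samples did not deviate together (correlations from -0.163 to 0.0562), so numbers were used as a block only as an alternative.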

Additional observations from a re-analysis of the deposited data

Results flagged for a closer look

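Of 52 genes named by the rule and kept in the tissue by condition fit, 21 changed differently in adipose tissue and the pancreas by the tissue by condition term (edgeR quasi-likelihood test, adjusted p under 0.05), 15 with the higher log2 fold change in adipose tissue and 6 with the higher in the pancreas. Over all 17046 genes in that fit, 21.3% passed the same test. Genes outside the synthesis pathway were named for having the smallest p of their list within a tissue of these same data. That choice favours genes that changed, so the count among named genes cannot be compared with the share over all genes. Differences below are the adipose minus the pancreas log2 fold change.

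The 6 synthesis genes among the 21 all had differences above 0. They were 1.89 for Sqle, 2.10 for Idi1, 1.22 for Cyp51, 1.73 for Lss, 1.44 for Tm7sf2 and 0.73 for Ebp. For Idi1 10 of 17 alternatives kept the call and for Tm7sf2 9 of 18. Idi1 was too low for a pancreas test and entered the fit only through its adipose counts.

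Among the sensing genes Insig2 (-1.27) and Rnf139 (-0.97) differed. In cholesterol handling the differences were -4.33 for Gramd1b, -2.24 for Npc1, 1.06 for Npc2 and 0.86 for Scarb1. In the liver X receptor list they were -0.95 for Abca1 and 3.48 for Cyp7b1. Cyp7b1 had 4 to 14 counts in pancreas libraries, too low for a test there.

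In the non-sterol branch they were 0.53 for Dhdds, 1.10 for Nus1, 0.85 for Rabggta and 1.04 for Rabggtb. In fatty acid synthesis they were 1.72 for Fads1, 1.73 for Fads2 and -3.04 for Fasn. The Fasn call was lost without pancreas control 1 (adjusted p = 0.0958), control 2 (0.0921) or OA-AP pancreas 3 (0.0506), and the difference was -2.14 without adipose control 1. Dhdds kept its call in 4 of 18 alternatives and Rabggta in 11 of 18, and both lost it without adipose control 2 (0.47, adjusted p = 0.116, and 0.75, adjusted p = 0.057). The calls of Abca1, Cyp51, Fads2 and Nus1 were lost without pancreas control 2, and those of Rabggtb and Scarb1 without pancreas control 1. Groups of 2 or 3 samples were too small for a test of single outlying samples.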

How the results depend on the processing

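With library totals alone, log2 fold changes of genes not called in the pancreas turned positive for Hmgcs1 (0.30), Acat2 (0.37), Pmvk (0.46), Mvd (0.50), Msmo1 (0.40), Hsd17b7 (0.56), Ebp (0.57) and Rabggtb (0.096), and Npc2, called lower, stood at 0.019. In adipose tissue Pmvk turned to -0.084 and Lss to -0.019, and the tissue difference turned for Fdps (-0.29), Dhdds (-0.31), Ebp (-0.11) and Rabggta (-0.0054). Pancreas Lbr, near 0, stood at -0.026 with DESeq2 and with its size factors. Under library totals all calls moved to 6349 of 12884 pancreas genes (3834 as reported). For the tissue term they moved to 6662 against 3636, with 392 above and 6270 below 0 (1842 and 1794). In adipose tissue library totals gave 1365 genes higher and 2885 lower (1915 and 2066). With the replicate block, 2 of the 7 genes were called in the pancreas (Insig1 and Sqle), 2 in adipose tissue (Sqle and Insig1, Hmgcs1 having an adjusted p of 0.0535) and 2 for the tissue term (Sqle and Cyp51, Idi1 having an adjusted p of 0.0857). The block gave 4099 pancreas, 3477 adipose and 2156 tissue calls over all genes, and pancreas Lbr at -0.090. A fold change of at least 2 left 0 of the 7 genes and 1 other enzyme in adipose tissue, and no count filter left 1 of the 7. The fold change of at least 2 left 2464 pancreas and 2228 adipose calls over all genes. Leaving out 1 library gave 1 to 3 of the 7 genes in the pancreas, 0 to 2 in adipose tissue and 1 to 4 for the tissue term, and 1 to 3 and 2 to 3 other enzymes. Both low ends for the pancreas came without a control, where 1687 (control 1) or 1495 (control 2) genes were called. Ranges of genes that changed sign were -0.66 to 0.090 for pancreas Pmvk, -0.18 to 0.22 for Lbr, -0.19 to 0.60 for Nsdhl and -0.71 to 0.46 for Hsd17b7, and in adipose tissue -0.097 to 0.17 for Pmvk, -0.12 to 0.027 for Lbr and -0.13 to 0.17 for Nsdhl. The causes were not tested. Depth and near-identical gene copies limit Idi1 and Fdps in the pancreas.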

Other observations

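Outside the lists, the genes whose tissue-centred log2 CPM followed the mean of the 5 genes tested in both tissues most closely over the 11 libraries were Rilp (r = 0.955), Ndufb5 (0.955), Jarid2 (0.95), Hint2 (0.948) and Cnbp (0.94). The 5 genes themselves correlated with their own mean at 0.898 for Insig1, 0.803 for Cyp51, 0.646 for Hmgcs1, 0.63 for Sqle and 0.482 for Fdft1. The points share library, depth and the contrast of control with OA-AP, so these values are a description.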
